A study of Mus musculus with 56 samples.

Results

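The genes described here are 10 interferon-inducible GTPases of the mouse: the guanylate-binding proteins Gbp2, Gbp3, Gbp5, Gbp6 and Gbp7, and the immunity-related GTPases Irgm1, Irgm2, Igtp, Iigp1 and Ifi47. They were chosen by name, and each matched 1 row in both deposited tables, 10 of 52636 genes in the heart table and 10 of 57010 in the table of bone, muscle and skin. RNA was measured in monocytes and macrophages sorted from injured tissue in 56 libraries that form 16 groups. The injuries were a myocardial infarction, a cranial bone defect, a volumetric muscle loss and a skin punch wound, 1 injury per mouse.

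In the depleted groups, mice carried the Foxp3(DTR/GFP) allele, by which cells that express Foxp3, the transcription factor of regulatory T cells (Treg), make the diphtheria toxin receptor, and they were given diphtheria toxin. Control groups were C57BL/6J mice without the allele that received the toxin as well, so the toxin was common to all 16 groups. The mice were 10 weeks old. Depleted and control hearts were collected on days 4 and 7 with 3 libraries a group. The names of the hearts taken here as day 7 give no day, and they were placed there because the names of the other hearts give day 4, so each heart value of day 7 and each heart comparison between days rests on that reading. Bone was collected on day 7 with 5 libraries a group and on day 10 with 3. Muscle was collected on days 4 and 7 with 3 libraries a group, and skin on days 4 and 7 with 4. The toxin acts through the whole body, so the depletion was not limited to the wound. Whether each library stands for its own animal is not in the labels, and the p-values below therefore measure only the spread between libraries.

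Both families are large GTPases made inside cells that have received an interferon signal, above all interferon gamma, which acts through the kinases Jak1 and Jak2. Guanylate-binding proteins assemble on the membranes of microbes and of the vacuoles that hold them, and take part in opening those vacuoles and in inflammasome activation. Among the immunity-related GTPases, Iigp1 (Irga6) and Ifi47 (Irgd) are effectors that load onto vacuoles, while Irgm1, Irgm2 and Igtp (Irgm3) sit on the cell's own membranes and regulate the effectors. In macrophages these genes are a standard readout of interferon gamma exposure.

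The members lie in a few gene clusters of the GRCm38 assembly, by the GENCODE M21 annotation. Gbp5, Gbp7, Gbp3 and Gbp2 follow one another on the plus strand of chromosome 3 within 144031 bases. Gbp6 is on the minus strand of chromosome 5 (105270702 to 105293698). Irgm1 (minus strand, 48861968 to 48871683), Ifi47 (plus strand, 49076587 to 49096974), Igtp (plus strand, 58199556 to 58207591) and Irgm2 (plus strand, 58199618 to 58222782) are on chromosome 11, where the annotated spans of Igtp and Irgm2 overlap on the same strand. The place of Iigp1 is given with its values.

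The 250 bases before the annotated start are printed below for 6 members, with letters that interferon-activated factors are known to read marked. All printed windows hold such letters. Of the other members with an entry, Ifi47 had none and Gbp3 had them before its first start site only, and neither is printed. The bearing of these letters on the member changes was not tested. The sequences are from RefSeq on GRCm38.p6, 5′ to 3′ in the direction of transcription. Capitals mark matches on either strand to the interferon-stimulated response element (ISRE) letters, GAAANN followed directly by GAAA (TTTCNN followed by TTTC on the other strand), and to the gamma-activated site (GAS) letters TTCNNNGAA, which read the same on both strands.
Gbp2 promoter, chr3:142620413-142620662, plus strand: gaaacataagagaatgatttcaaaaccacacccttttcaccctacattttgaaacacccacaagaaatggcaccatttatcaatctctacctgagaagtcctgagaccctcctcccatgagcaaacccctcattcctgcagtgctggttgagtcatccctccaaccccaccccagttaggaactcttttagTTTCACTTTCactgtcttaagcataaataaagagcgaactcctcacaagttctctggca
Gbp5 promoter, chr3:142496684-142496933, plus strand: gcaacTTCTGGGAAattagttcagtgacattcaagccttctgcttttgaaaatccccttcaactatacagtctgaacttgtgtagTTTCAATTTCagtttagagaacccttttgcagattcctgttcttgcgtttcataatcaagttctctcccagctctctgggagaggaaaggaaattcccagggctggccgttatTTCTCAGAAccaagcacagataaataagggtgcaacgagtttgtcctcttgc
Gbp7 promoter, chr3:142530086-142530335, plus strand: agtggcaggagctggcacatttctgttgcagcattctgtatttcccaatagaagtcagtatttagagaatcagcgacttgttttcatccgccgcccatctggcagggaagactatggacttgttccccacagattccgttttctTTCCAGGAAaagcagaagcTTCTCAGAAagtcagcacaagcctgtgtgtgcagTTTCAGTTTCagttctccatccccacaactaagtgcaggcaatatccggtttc
Irgm1 promoter, chr11:48871421-48871670, minus strand: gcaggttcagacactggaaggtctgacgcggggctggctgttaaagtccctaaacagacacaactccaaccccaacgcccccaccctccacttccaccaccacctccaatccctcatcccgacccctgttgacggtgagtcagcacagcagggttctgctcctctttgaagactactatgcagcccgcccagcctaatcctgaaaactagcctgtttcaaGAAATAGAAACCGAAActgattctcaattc
Igtp promoter, chr11:58199306-58199555, plus strand: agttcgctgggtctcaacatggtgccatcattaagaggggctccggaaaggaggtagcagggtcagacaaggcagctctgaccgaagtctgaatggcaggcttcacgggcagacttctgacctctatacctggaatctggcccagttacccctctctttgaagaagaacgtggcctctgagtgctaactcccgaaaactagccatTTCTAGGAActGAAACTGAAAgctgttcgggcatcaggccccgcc
Irgm2 promoter, chr11:58214727-58214976, plus strand: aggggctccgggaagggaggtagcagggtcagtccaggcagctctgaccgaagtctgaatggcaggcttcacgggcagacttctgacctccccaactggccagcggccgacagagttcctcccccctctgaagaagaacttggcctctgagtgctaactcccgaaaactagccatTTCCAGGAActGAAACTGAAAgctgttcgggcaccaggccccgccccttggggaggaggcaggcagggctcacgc

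An entry was found for 8 of the 10 members, not for Gbp6 and Iigp1, and Gbp3 had entries for 2 start sites, 9 entries in all. The ISRE letters were present before 7 of the 8 genes, all but Ifi47, and the GAS letters before 4, namely Gbp5, Gbp7, Irgm2 and Igtp, which held both motifs. Among all 32851 mouse promoters of the same length in the table, 3.0% held the ISRE letters, 7.0% the GAS letters and 0.33% both. In Gbp2 the ISRE letters lay 59 to 50 bases before the start, and in Irgm1 a pair of overlapping matches filled bases 30 to 15 before it. The windows of Igtp and Irgm2, neighbours on chromosome 11, shared a run of 55 identical bases. These matches describe letters in a window and are not binding sites measured in these cells.

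**Figure D1:**
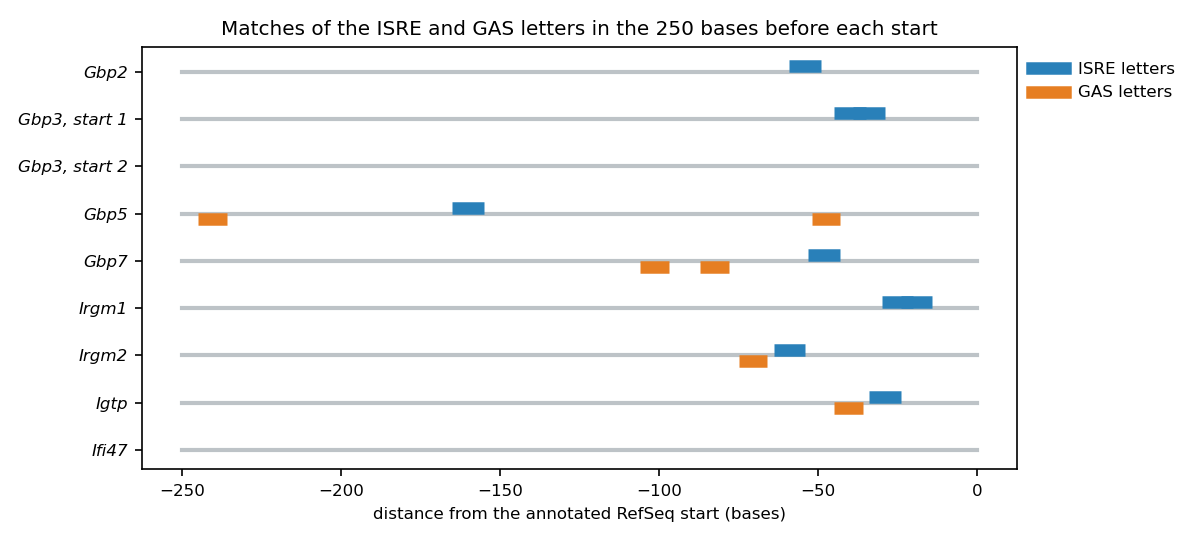
Positions of the ISRE letters (blue) and GAS letters (orange) in the 250 bases before each RefSeq start, with the distance from the start in bases on the horizontal axis and 1 line per entry. Most matches lie within the 106 bases nearest the start, with 2 matches of Gbp5 farther out, and the entry of Ifi47 and the second one of Gbp3 have none.

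Total counts per library ran from 2642452 to 9788811 for hearts, from 2318223 to 5835064 for bones, from 3439649 to 6397377 for muscles and from 3013740 to 5392902 for skin wounds. Macrophage markers (Adgre1, Csf1r, Cd68, Lyz2, the C1q genes and others) were present throughout, with summed levels of 7527 to 45399 CPM (counts scaled to the total of the library), and neutrophil markers were high in bone, at 9455 to 34016 CPM in depleted samples and 5408 to 14042 CPM in control samples. Foxp3 itself gave no count in 18 of 28 depleted and in 18 of 28 control libraries, with at most 4 counts in depleted and 15 in control libraries, so these sorted cells do not show how far Treg were depleted. In heart, the day 4 depleted library F3 stood apart from F1 and F2 for all 10 members, and values without it are given beside the heart results.

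All 10 GTPases were higher in depleted than in control cells in all 8 comparisons of tissue and day, on the estimate of the fit. Of these 80 values, 35 passed an adjusted p under 0.05 in edgeR's quasi-likelihood test over all genes of the tissue, and every one of the 35 was higher in depleted cells. The share of all genes called lower was 6.85% and 1.56% in heart on days 4 and 7, 12.6% and 8.22% in bone on days 7 and 10, 0.101% and 3.92% in muscle on days 4 and 7, and 1.45% and 3.27% in skin on days 4 and 7. In 62 of the 80 the depleted and control libraries did not overlap at all, and in 18 they did. In bulk samples a greater share of responding cells and more RNA per cell cannot be told apart.

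All 10 members rose in bone on day 7, where 11.0% of all genes tested were called higher. In skin, 8 of 10 rose on day 4 (2.12% of all genes called higher) and 9 of 10 on day 7 (2.95%). Groups held 5 libraries in bone on day 7, 4 in skin and 3 in every other case. The power to call a gene differs with that number, so the counts of calls do not rank the tissues. In heart on day 4, 3 of 10 rose (4.25%), namely Gbp2, Gbp6 and Ifi47. Without F3 the called members were Gbp2, Gbp3 and Ifi47, without F1 or F2 there were 6, and without any 1 of the 3 controls there were 0. Bone on day 10 had 3 (8.95%). Muscle on day 7 had 2 (4.67%). No member was called in muscle on day 4, where edgeR called only 0.0542% of all genes higher. In edgeR 9 members had an unadjusted p under 0.05, as had 1089 of all 12907 genes. DESeq2 called 4 members and 93 genes in either direction, and limma-voom 0 members and 17 genes. Leaving out depleted replicate 2 there gave 4 calls (Gbp2, Gbp5, Gbp6 and Iigp1). For heart on day 7 edgeR called no member either (1.58% of genes higher). In edgeR 7 members and 2125 of 11339 genes had an unadjusted p under 0.05. DESeq2 called 4 members and 618 genes in either direction, and limma-voom 3 members and 599 genes.

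The count of members whose libraries did not overlap was 7 in heart on day 4 (13.6% of all genes lay apart in this direction), 9 in heart on day 7 (12.5%), 8 in bone on day 7 (7.48%) and 7 in bone on day 10 (18.3%). It was 7 in muscle on day 4 (7.24%), 7 in muscle on day 7 (10.9%), 8 in skin on day 4 (5.40%) and 9 in skin on day 7 (4.93%). The median log2 change of the 10 members was 1.80 and 1.25 in heart on days 4 and 7, 1.67 and 0.93 in bone on days 7 and 10, 0.91 and 0.85 in muscle on days 4 and 7, and 1.18 and 1.72 in skin on days 4 and 7. Over all genes tested these medians lay between -0.02 and 0.00.

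**Figure D2:**
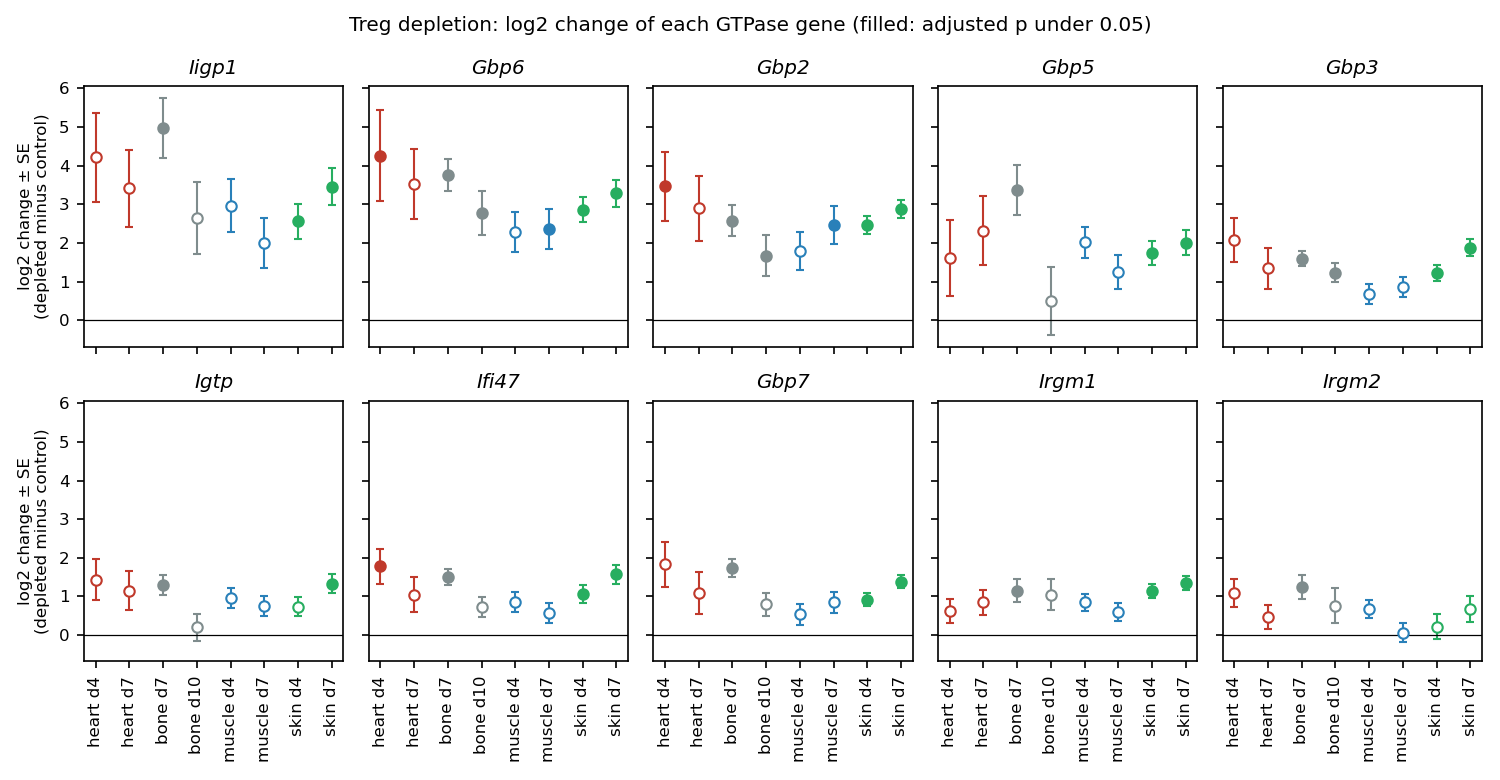
Log2 change (depleted minus control) with its standard error for each gene, 1 panel per gene, over the 8 comparisons of tissue and day on the horizontal axis, where filled points passed an adjusted p under 0.05. All 80 points lie above 0, with Iigp1, Gbp6 and Gbp2 highest and Irgm2 nearest to 0.

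Gbp2, a guanylate-binding protein recruited to microbial vacuoles, gave one of the clearest separations. In skin on day 4 it was at 171, 110.5, 113 and 126 CPM in the 4 depleted libraries, against 28.9, 21.7, 20.1 and 24.3 CPM in the 4 control libraries. The lowest depleted library was several times the highest control one, and the log2 change was 2.46 ± 0.23 (SE; edgeR adjusted p = 1.23e-06). On day 7 the depleted wounds gave 98.4, 127, 58.0 and 155 CPM and the control wounds 13.7, 13.8, 14.4 and 17.4 CPM, a change of 2.88 ± 0.24 (edgeR adjusted p = 2.22e-07).

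For bone on day 7, Gbp2 values were 82.9, 87.4, 259.6, 109 and 40.4 CPM in depleted samples and 22.4, 11.8, 25.3, 14.4 and 24.0 CPM in control samples. Depleted replicate 3 was the highest and replicate 5 the lowest of its group, still above every control, and the log2 change was 2.58 ± 0.41 (edgeR adjusted p = 0.000317). On day 10 the depleted bones gave 47.9, 75.3 and 61.1 CPM and the control bones 18.5, 18.6 and 20.8 CPM, with a change of 1.67 ± 0.53 (edgeR adjusted p = 0.0421). That call was lost when any 1 of the 6 libraries was left out.

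In muscle on day 7 Gbp2 was at 134, 125 and 228 CPM in depleted samples and 33.1, 27.1 and 27.2 CPM in control samples (log2 change 2.47 ± 0.50, edgeR adjusted p = 0.0108), a call lost with no filter on low counts (edgeR adjusted p = 0.0535). On day 4 it was at 212, 44.8 and 86.2 CPM in depleted and 25.0, 38.9 and 34.9 CPM in control muscle, apart but with a spread that left the adjusted p at 0.283 in edgeR. Heart levels of Gbp2 on day 4 were 116, 157 and 1122 CPM in depleted samples and 44.7, 44.7 and 37.5 CPM in control samples. The highest value is that of F3. The log2 change was 3.47 ± 0.89 (edgeR adjusted p = 0.0429), and it was 1.68 without F3 (edgeR adjusted p = 0.0202). On day 7 the depleted hearts gave 565, 318 and 232 CPM and the control hearts 49.3, 46.8 and 53.6 CPM, 3 against 3 with no overlap, yet with an edgeR adjusted p of 0.116.

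**Figure D3:**
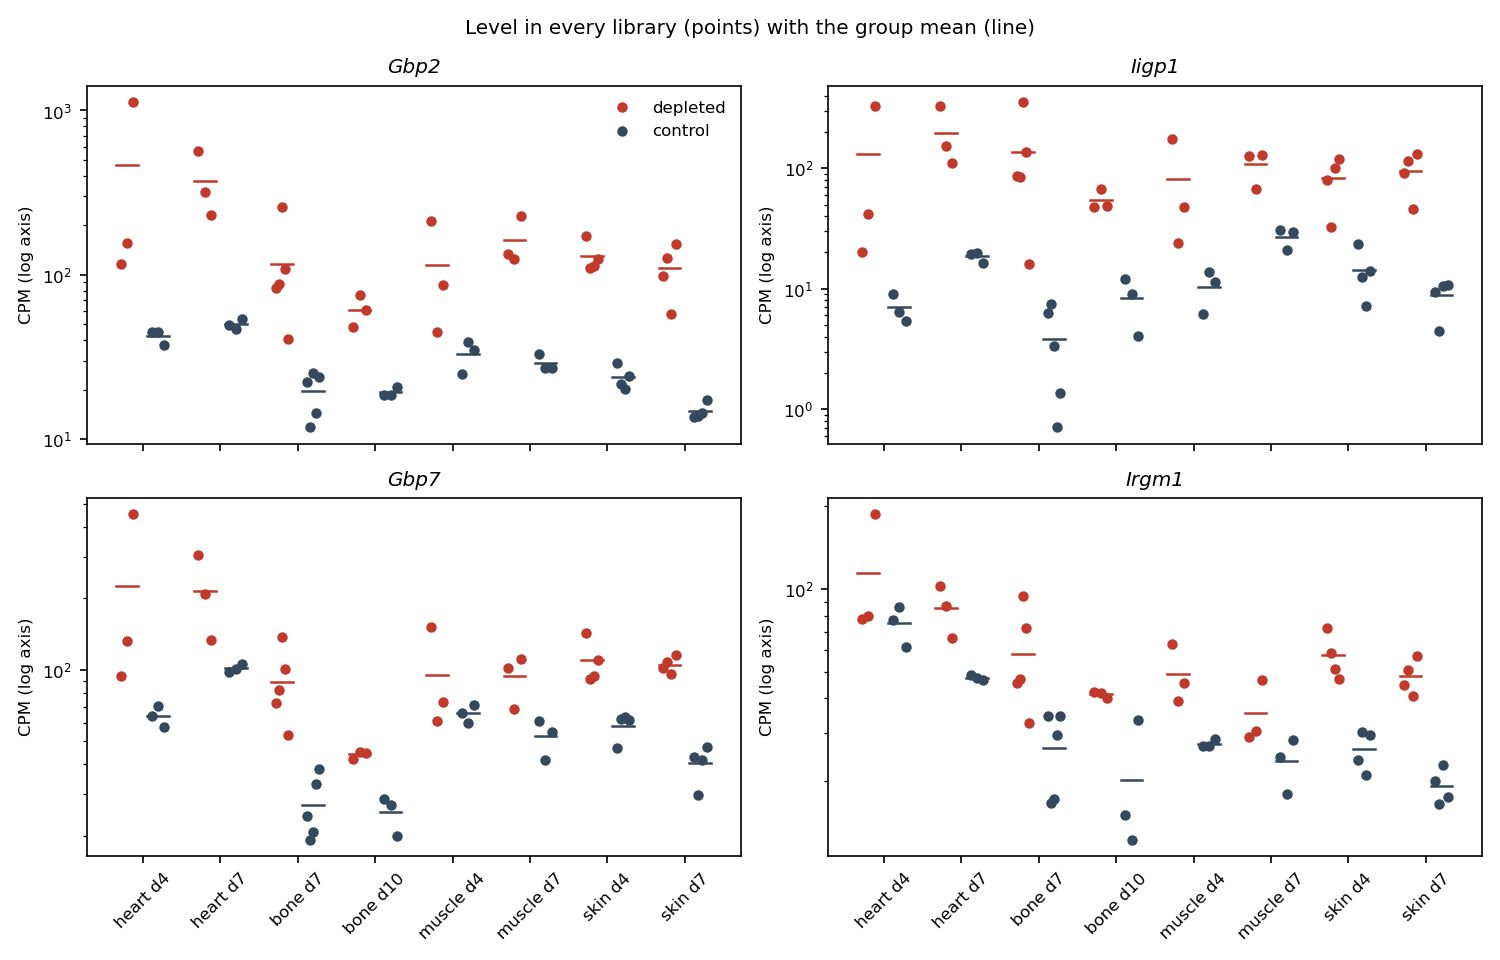
Level in CPM on a log axis of Gbp2, Iigp1, Gbp7 and Irgm1 in every library, with depleted libraries left of control libraries in each tissue and day and a line at the group mean. Gbp2 and Iigp1 do not overlap between arms in any of the 8 comparisons, while Irgm1 overlaps in heart on day 4 and bone on day 7.

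Gbp6 rose in 6 of the 8 comparisons, and its libraries were apart in all 8. In skin on day 7 it was at 25.6, 50.0, 22.4 and 34.6 CPM in depleted samples and 3.42, 2.33, 4.69 and 3.31 CPM in control samples (log2 change 3.29 ± 0.34, edgeR adjusted p = 1.83e-06). Depleted bones on day 7 held 31.4, 33.5, 79.7, 38.6 and 12.6 CPM and control bones 5.30, 1.71, 2.67, 2.81 and 1.36 CPM (3.76 ± 0.42, edgeR adjusted p = 4.78e-06). The change was 2.78 ± 0.57 in bone on day 10, 2.36 ± 0.51 in muscle on day 7 and 2.87 ± 0.33 in skin on day 4, each past the threshold in edgeR. In heart the gene was at the edge of detection, with 9, 6 and 117 counts in depleted against 2, 1 and 2 counts in control libraries on day 4. The fitted change there, which at such counts depends on the prior count, was 4.26 ± 1.18 (edgeR adjusted p = 0.0444), and 2.19 without F3 (edgeR adjusted p = 0.111).

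Gbp6 has near-identical neighbours, which bears on its counts. Of the 31-base words of its annotated transcripts, 74.2% also occur in another gene, above all in Gm43302 (67.8%) and Gbp10 (51.4%). In the bone, muscle and skin table, 95.5% of its nonzero values lay more than 0.01 from a whole number, against 19.4% over all genes, and how reads that fit several genes were shared out is uncertain. When its counts were summed with those of Gbp10 and Gm43302, an alternative added after the data were seen, its changes lay between 2.19 and 4.27 and the same 6 comparisons were called.

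Gbp5, which takes part in inflammasome activation, was a low gene with a wide range of changes. Its day 7 bone levels were 12.9, 6.05, 41.8, 24.8 and 4.30 CPM in depleted samples and 1.68, 2.78, 1.67, 1.76 and 0 CPM in control samples, and it rose by 3.37 ± 0.64 on the log2 scale (edgeR adjusted p = 0.00102). On day 10 in bone its arms overlapped, with 5.41, 2.49 and 5.31 CPM in depleted samples and 1.61, 1.98 and 6.11 CPM in control samples (0.50 ± 0.88, edgeR adjusted p = 0.743). In skin it rose on both days, by 1.74 ± 0.32 and 2.01 ± 0.32 (edgeR adjusted p = 0.00222 and 0.000283). On day 4 in heart only F3 was above the controls, at 42.4 CPM, while F1 and F2 at 5.2 and 6.13 CPM lay inside the control values of 6.77, 8.29 and 3.53 CPM. Its change there was 1.61 ± 0.98, and -0.16 without F3.

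Gbp3 and Gbp7, neighbours on chromosome 3, moved less and more evenly. Gbp3 rose in bone on both days, by 1.59 ± 0.19 and 1.22 ± 0.25, and in skin on both days, by 1.22 ± 0.21 and 1.88 ± 0.22 (edgeR adjusted p = 4.05e-06, 0.00238, 0.00141 and 6.65e-06 in that order). Its skin day 7 libraries held 75.4, 96.6, 75.4 and 109 CPM in depleted and 26.0, 21.0, 24.6 and 25.6 CPM in control wounds. Gbp7 rose in bone on day 7 by 1.74 ± 0.22 and in skin by 0.92 ± 0.16 on day 4 and 1.38 ± 0.17 on day 7 (edgeR adjusted p = 1.25e-05, 0.0017 and 8.88e-06). Skin levels of Gbp7 on day 7 were 102, 108, 96.1 and 115 CPM in depleted samples and 42.9, 29.8, 41.6 and 47.4 CPM in control samples. In muscle on day 4, the depleted libraries of Gbp7 at 151, 60.7 and 72.9 CPM overlapped the control ones at 65.9, 59.6 and 71.3 CPM. How reads were shared out is uncertain for both genes. In the bone, muscle and skin table, 70.5% of the nonzero values of each lay more than 0.01 from a whole number. Of the 31-base words of Gbp7, 14.7% also occur in another gene, above all Gm43802 (10.8%), and 3.3% occur in Gbp3. Of those of Gbp3, 5.5% occur in Gbp7.

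Among the immunity-related GTPases the effector Iigp1, on chromosome 18 from 60376027 to 60392634, had the largest changes. Its levels in bone on day 7 were 86.7, 85.0, 354, 136 and 16.0 CPM in depleted samples and 6.26, 7.49, 3.33, 0.703 and 1.36 CPM in control samples. The lowest depleted library was above the highest control, and the log2 change was 4.98 ± 0.78 (edgeR adjusted p = 0.000482), the largest among the 80 member values. Without the highest library, depleted replicate 3, it was 4.25 (edgeR adjusted p = 0.000206). The control bones held only 2 to 35 counts of Iigp1 per library, so the size of this change is uncertain. Depleted skin on day 7 held 90.9, 115, 45.7 and 131 CPM and control skin 9.47, 4.48, 10.5 and 10.8 CPM (3.46 ± 0.48, edgeR adjusted p = 0.000357), and on day 4 the change was 2.56 ± 0.45 (edgeR adjusted p = 0.00545).

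In the other 5 comparisons Iigp1 lay apart between arms without passing the threshold. Heart levels on day 7 were 326, 154 and 110.3 CPM in depleted samples and 19.6, 19.7 and 16.3 CPM in control samples, with a log2 change of 3.41 ± 0.99 and an edgeR adjusted p of 0.115. In heart on day 4 the depleted values were 20.0, 41.4 and 329 CPM and the control values 9.10, 6.42 and 5.43 CPM (4.22 ± 1.15, edgeR adjusted p = 0.0532), with 2.05 without F3. Its muscle levels on day 7 were 126, 67.1 and 129.9 CPM in depleted samples and 30.8, 20.9 and 29.6 CPM in control samples (2.00 ± 0.64, edgeR adjusted p = 0.0956). Its changes in muscle on day 4 and bone on day 10 were 2.97 ± 0.69 and 2.64 ± 0.93.

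Ifi47, the other effector, rose in 4 comparisons with smaller changes. Bone levels on day 7 were 145, 179, 275, 195 and 142 CPM in depleted samples and 93.9, 43.4, 69.3, 58.7 and 66.6 CPM in control samples (1.5 ± 0.20, edgeR adjusted p = 2.41e-05). It rose by 1.05 ± 0.23 in skin on day 4 and by 1.57 ± 0.24 on day 7 (edgeR adjusted p = 0.0117 and 0.000193). Depleted hearts on day 4 held 199, 175 and 566 CPM and control hearts 80.8, 109 and 86.9 CPM (1.78 ± 0.46, edgeR adjusted p = 0.0443), and without F3 the change was 1.02 (edgeR adjusted p = 0.0157). In muscle the arms overlapped on both days.

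The 3 regulators had median log2 changes of 1.06 or less over the 8 comparisons, as had Ifi47 (1.05) and Gbp7 (1.00). Irgm1, whose loss in mice weakens resistance to intracellular bacteria, rose in bone on day 7 (1.15 ± 0.30, edgeR adjusted p = 0.00843) and in skin on days 4 and 7 (1.14 ± 0.18 and 1.34 ± 0.18, edgeR adjusted p = 0.000357 and 4.14e-05). In skin on day 7 it was at 44.9, 50.6, 40.8 and 57.2 CPM in depleted samples and 20.0, 16.5, 22.9 and 17.6 CPM in control samples. In heart on day 4 the depleted values of 77.5, 80.1 and 186 CPM overlapped the control values of 77.2, 86.1 and 61.6 CPM, and the change of 0.62 ± 0.32 was 0.07 without F3. Igtp rose in bone on day 7 (1.30 ± 0.26, edgeR adjusted p = 0.00137) and in skin on day 7 (1.33 ± 0.25, edgeR adjusted p = 0.00173).

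Irgm2 was called in bone on day 7 alone among the 8 comparisons, at 1.26 ± 0.31 (edgeR adjusted p = 0.00541), and even there its arms overlapped. The depleted bones held 9.39, 14.3, 22.8, 23.4 and 17.2 CPM, and the control bones 12.04, 7.27, 4.33, 4.92 and 7.25 CPM. Muscle levels on day 7 were 11.1, 9.29 and 11.1 CPM in depleted samples and 8.47, 9.45 and 12.8 CPM in control samples, with a change of 0.06 ± 0.25 that turned to -0.07 without control replicate 1. In skin its changes were 0.22 ± 0.33 and 0.68 ± 0.34 on days 4 and 7. Igtp and Irgm2 share sequence and an annotated span: 15.9% of the 31-base words of Igtp also occur in Irgm2, and the split of reads between them is uncertain. With the counts of both genes summed, the change was called in the same 2 comparisons as Igtp, at 1.30 in bone and 1.23 in skin on day 7.

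The order of the members by size of change was alike across comparisons. Iigp1 and Gbp6 were among the highest 3 of the 10 in 8 of 8 comparisons, Gbp2 in 6 and Gbp5 in 2. Irgm2 was among the lowest 3 in 7 of 8, and Irgm1 and Igtp in 5 each. The median log2 change over the 8 comparisons was 3.19 for Iigp1, 3.08 for Gbp6, 2.53 for Gbp2, 1.87 for Gbp5 and 1.29 for Gbp3. It was 1.06 for Igtp, 1.05 for Ifi47, 1.00 for Gbp7, 0.95 for Irgm1 and 0.68 for Irgm2. The stability of this order was not tested.

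In most depleted groups 1 library was highest for most members, while in control groups no library was highest for more than 6 of 10. On day 4 F3 was the highest depleted heart for 10 of 10 members, with a median of 3.67 times the next. FDG1 was the highest depleted heart on day 7 for 10 of 10, replicate 1 the highest depleted muscle on day 4 for 10 of 10, and replicate 3 the highest depleted bone on day 7 for 9 of 10. For muscle on day 7 depleted replicate 3 was highest for 9 of 10, and for skin depleted replicate 1 on day 4 was highest for 9 and depleted replicate 4 on day 7 for 8. Depleted bone on day 10 was divided, with its 3 libraries highest for 3, 5 and 2 members. Centred within tissue and day, the log2 levels of member pairs correlated with a Pearson r of 0.61 to 0.96 over the 44 bone, muscle and skin libraries (median 0.84 of 45 pairs) and of 0.71 to 0.99 over the 12 heart libraries (median 0.93), values that hold the difference between arms as well as that between libraries.

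The question of time after injury was put within each arm. From day 7 to day 10 in depleted bone, Gbp7, Igtp and Ifi47 fell (12.2% of all genes were called in either direction). Ifi47 was at 83.3, 88.8 and 102 CPM on day 10 and at 145, 179, 275, 195 and 142 CPM on day 7, with no overlap (log2 change -1.03 ± 0.24, edgeR adjusted p = 0.00863). Gbp7 changed by -1.02 ± 0.26 (edgeR adjusted p = 0.0143) and Igtp by -1.09 ± 0.31 (edgeR adjusted p = 0.0283), and all 10 members had negative values. The Igtp call was lost without any 1 day 10 library or day 7 replicate 4, and the Gbp7 call without day 10 replicate 1 or 3. In control bone edgeR called no member (0.0393% of genes), and DESeq2 none either, with none at an unadjusted p under 0.05, and the 10 values ran from -0.39 to 1.02.

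In depleted muscle 2 of 10 members, Gbp5 and Irgm2, were called lower on day 7 than on day 4. That is near the share of all genes called in either direction (19.4%), and 4 of the 10 values were positive and 6 negative. Gbp5 was at 8.29, 12.7 and 14.7 CPM on day 7 and at 52.3, 15.4 and 22.3 CPM on day 4 (-1.35 ± 0.38, edgeR adjusted p = 0.0187), and Irgm2 changed by -0.78 ± 0.24 (edgeR adjusted p = 0.0267). The Gbp5 call was lost without day 4 replicate 1 or day 7 replicate 1 or 2, and the Irgm2 call without day 4 replicate 1 or 3 or day 7 replicate 2 or 3. With edgeR no member was called between days in control muscle (7.24% of genes), in depleted or control heart (27.3% and 31.8%) or in depleted or control skin (2.62% and 2.27%). In control skin all 10 values were negative, between -0.74 and -0.43, and 6 had an unadjusted p under 0.05 in edgeR, as had 1745 of 12616 genes. The other counts of members at that level were 0 in depleted heart, 1 in control heart, 0 in control muscle and 0 in depleted skin. DESeq2 called 2 members in control heart and 0 in the other 4. Without F3, 5 members were called between days in depleted heart. Whether the effect of depletion differed between days was tested as an interaction in each tissue, and with edgeR no member passed in heart (4.09% of genes), bone (0%), muscle (2.41%) or skin (0.848%). Members at an unadjusted p under 0.05 numbered 0, 4, 0 and 1 in that order of tissues, and DESeq2 called 0 in each. The estimates, later day minus earlier day, were negative for all 10 members in bone (-2.87 to -0.10) and positive for all 10 in skin (0.20 to 0.90). In heart 2 were positive and 8 negative, and in muscle 4 were positive and 6 negative. In bone, edgeR called 0 of 12709 genes in this test, with 1591 genes at an unadjusted p under 0.05. The lower counts on day 10 in bone are therefore not shown to be a smaller effect.

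Bone, muscle and skin share a table, and levels were compared between these tissues in a fit of their 12 groups. The injuries differ between tissues as well, so tissue and injury cannot be told apart. On day 7, control bone was lower than control muscle in Iigp1 (-2.70 ± 0.74, edgeR adjusted p = 0.0108), Gbp7 (-1.04 ± 0.25, edgeR adjusted p = 0.00269) and Gbp3 (-0.73 ± 0.24, edgeR adjusted p = 0.0355), 3 of 10 members where 13.6% of genes were called in either direction. Iigp1 averaged 3.68 ± 2.85 CPM in control bone (SD, n = 5), 27.1 ± 5.34 CPM in control muscle (n = 3) and 9.14 ± 3.15 CPM in control skin (n = 4) on the scale of that fit. Control bone was below control skin in Gbp7 (-0.70 ± 0.23, edgeR adjusted p = 0.0219), 1 of 10 members where 25.6% of genes were called. Control muscle was above control skin in Gbp3 (1.00 ± 0.25, edgeR adjusted p = 0.00605), 1 of 10 members where 11.9% of genes were called. Neither count of members exceeds the share over all genes. The order for Iigp1 in control tissue was muscle, skin and bone, and skin differed from neither neighbour beyond the threshold (muscle minus skin 1.59 ± 0.71, bone minus skin -1.11 ± 0.78). The bone and muscle call of Iigp1 held with each library left out and was lost in limma-voom (-2.99, adjusted p = 0.0768). That of Gbp3 was lost without any 1 of 5 libraries, and the bone and skin call of Gbp7 likewise. On day 4 no member was called between control muscle and skin (12.3% of genes), and none had an unadjusted p under 0.05 or was called by DESeq2.

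In depleted tissue on day 7 Iigp1 averaged 131 ± 123 CPM in bone (SD, n = 5), 108 ± 35.3 CPM in muscle (n = 3) and 97.5 ± 37.7 CPM in skin (n = 4). The effect of depletion on Iigp1 was larger in bone than in muscle, by 2.98 ± 0.95 on the log2 scale (edgeR adjusted p = 0.0459), the only one of 10 members to pass where 8.28% of genes were called in either direction. That call was kept without depleted bone replicate 1, 2 or 5 or control bone replicate 2 and lost in the other 12 of 16 fits that left out 1 library, with edgeR adjusted p up to 0.111 and changes of 2.28 to 3.41. It was also lost in limma-voom (adjusted p = 0.175). The low counts of Iigp1 in control bone limit this comparison as well. With edgeR no difference of effects was called for any member between bone and skin (9.37% of genes), muscle and skin on day 7 (2.78%) or muscle and skin on day 4 (0.265%). Members at an unadjusted p under 0.05 numbered 0, 2 and 0, and genes 3296, 1784 and 1160 of 14340. DESeq2 called no member. The estimates were negative for all 10 members for muscle minus skin on day 7 (-1.44 to -0.39) and positive for all 10 for bone minus muscle (0.12 to 2.98). For bone minus skin 6 were positive and 4 negative, and for muscle minus skin on day 4, 4 were positive and 6 negative.

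Other genes of both families were called higher in 7 of the 8 comparisons, in numbers that differed between them. Of the further family genes tested, 2 of 10 were called higher in heart on day 4, 0 of 10 in heart on day 7, 11 of 14 in bone on day 7, 7 of 14 in bone on day 10, 2 of 15 and 6 of 15 in muscle on days 4 and 7, and 8 of 16 and 12 of 16 in skin on days 4 and 7, and none was called lower. Gbp4 rose by 4.49 in heart on day 4, 3.56 in bone on day 7 and 3.08 and 3.81 in skin on days 4 and 7. Gbp8 rose in 5 comparisons, and in skin on day 7 it averaged 59.3 ± 17.4 CPM in depleted samples and 8.05 ± 2.86 CPM in control samples (SD, n = 4 each). The effectors Tgtp1 and Tgtp2, which are near copies of each other, gave the only 2 family calls in muscle on day 4, at 1.88 and 1.84. Gm12250 (Irgb10), which acts with the guanylate-binding proteins on bacterial membranes, rose in bone on both days (2.17 and 1.62) and in skin on both days (1.16 and 1.72).

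The rest of the families were more mixed. Gm4951 and Gbp10 rose in 5 comparisons each, F830016B08Rik in 3, Gbp2b in 2 and Gbp9 in 1. The very large interferon-inducible GTPases Gvin1, Gvin2 and Gvin3 rose together in bone on both days and in skin on day 7, by 0.85 to 1.73. Counts of such near copies are uncertain where reads fit several of them. Gm5431, 9930111J21Rik1 and 9930111J21Rik2 were called in no comparison, with values from -1.60 to 0.54.

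Interferon gamma itself was at or near 0 in these sorted cells. Ifng had counts in 13 of 28 depleted and 5 of 28 control libraries, with at most 9 counts in depleted and 2 in control libraries. The 9 counts were in bone on day 7, in depleted replicate 3, the bone library with the highest sum of members. Groups differed in this. Depleted muscle on day 7 held 1 to 3 counts and control muscle 0. In skin on day 7, all 4 depleted and all 4 control libraries had 0. On day 10, 2 of 3 depleted and 0 of 3 control bones had no count. In heart on day 7, FDG2 had 3 counts and FDG1, with the highest sum of members, had 0. A link between Ifng counts and member levels was not tested. Of the ligands and cytokines that lead to its release, Il27 rose in 1 comparison of 8, by 2.01 in bone on day 7, Il12b fell in 1, by 1.86 in bone on day 7, and Il18 fell in 3. The receptor genes Ifngr1 and Ifngr2 were each called in 1 comparison, lower in depleted cells. Downstream, Jak2 and the feedback inhibitor Socs1 rose in 5 each, and the transcription factor Irf1 in 5, by 0.83 to 1.83.

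Other targets of interferon gamma were called higher in 9 of 17 tested in heart on day 4, 3 of 17 in heart on day 7, 9 of 17 and 4 of 17 in bone on days 7 and 10, 0 of 17 and 9 of 17 in muscle on days 4 and 7, and 10 of 18 and 11 of 18 in skin on days 4 and 7. In bone, 3 and 1 of them were lower on days 7 and 10, all of them genes of class II antigen presentation (Cd74, H2-Aa and H2-Ab1, then H2-Aa). Tap1, which carries peptides for antigen presentation, and the immunoproteasome subunits Psmb9 and Psmb8 rose in 6 comparisons each. Antiviral genes typical of type I interferon went another way. They were lower in 5 of 24 in heart on day 7, 7 of 21 and 10 of 21 in bone on days 7 and 10 and 15 of 23 in muscle on day 7, and higher in 5 of 24 in heart on day 4 and 4 of 21 in bone on day 7. In skin, 1 was higher on each day, and 1 and 2 of 23 were lower. None was called in muscle on day 4. Ifit3b fell in 6 comparisons and Rsad2 in 5, while Zbp1 rose in 4. In muscle on day 7 the median log2 change was 0.85 for the 10 GTPases and -1.03 for the antiviral list. The lists were chosen with results of these data known, and their medians are not independent evidence.

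**Figure D4:**
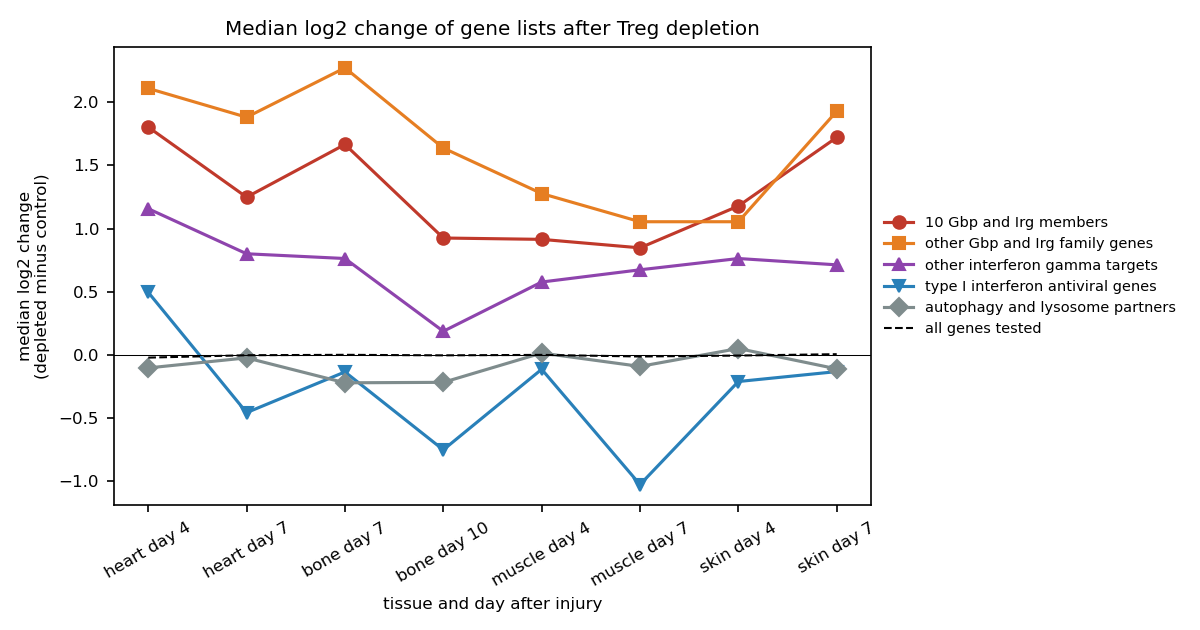
Median log2 change (depleted minus control) of the 10 GTPases, of 4 other gene lists and of all genes tested, over the 8 comparisons of tissue and day. The GTPases lie between 0.85 and 1.80, the type I interferon antiviral list lies below 0 in 7 of 8 comparisons and at 0.49 in heart on day 4, and all genes lie at 0.

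Autophagy partners of these GTPases gave few calls, and inflammasome genes were called in both directions. Of 14 autophagy and ubiquitin-like conjugation partners (the Gabarap and Map1lc3 genes, Atg5, Atg7 and others), which help place the GTPases on vacuoles, 1 was called higher in bone on day 10 (Atg3, 0.90) and none higher elsewhere, while 4 were lower in bone on day 7. The cargo receptor Sqstm1 fell in 3 comparisons, by 1.11 and 0.68 in bone on days 7 and 10 and by 0.72 in skin on day 7. Of 10 inflammasome genes, 4 were called higher and 0 lower in heart on day 4, 2 higher and 3 lower in bone on day 7, 2 higher and 2 lower in muscle on day 7, and 2 higher and 3 lower in skin on day 7. Pycard, the adaptor, rose in 5 comparisons (0.45 to 0.83) and Gsdmd, the pore-forming protein, in 4 (0.61 to 0.86). Ninj1, which ruptures the membrane of dying cells, and the cytokine Il1b each fell in 3.

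T and NK cell markers, genes of the cells that are the main source of interferon gamma, moved with the members in part of the data. Of 21 markers, those called higher in depleted libraries were 4 of 9 tested and 2 of 9 in heart on days 4 and 7, 13 of 15 and 3 of 15 in bone on days 7 and 10, 0 of 12 in muscle on both days with 1 lower on each, and 2 of 9 and 1 of 9 in skin on days 4 and 7. No marker was at 0 in every library of a tissue. Their summed level was 35.6 to 125 CPM in depleted and 9.52 to 18.7 CPM in control hearts on day 4, and 28.1 to 52.0 CPM in depleted against 18.1 to 25.1 CPM in control hearts on day 7. Depleted bones held 202 to 507 CPM on day 7 and control bones 102 to 149 CPM, and on day 10 depleted bones held 203 to 363 CPM and control bones 114 to 236 CPM. In muscle the arms overlapped, with 20.1 to 38.5 CPM in depleted samples and 27.1 to 33.4 CPM in control samples on day 4, and 98.1 to 110.2 CPM in depleted against 101 to 148 CPM in control muscle on day 7. Depleted skin held 33.3 to 62.8 CPM on day 4 and control skin 17.5 to 35.0 CPM, and on day 7 depleted skin held 50.4 to 83.1 CPM and control skin 32.5 to 63.5 CPM. The ranges of the arms also overlapped in skin on both days and in bone on day 10. The part of these markers in the member changes was not tested.

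**Figure D5:**
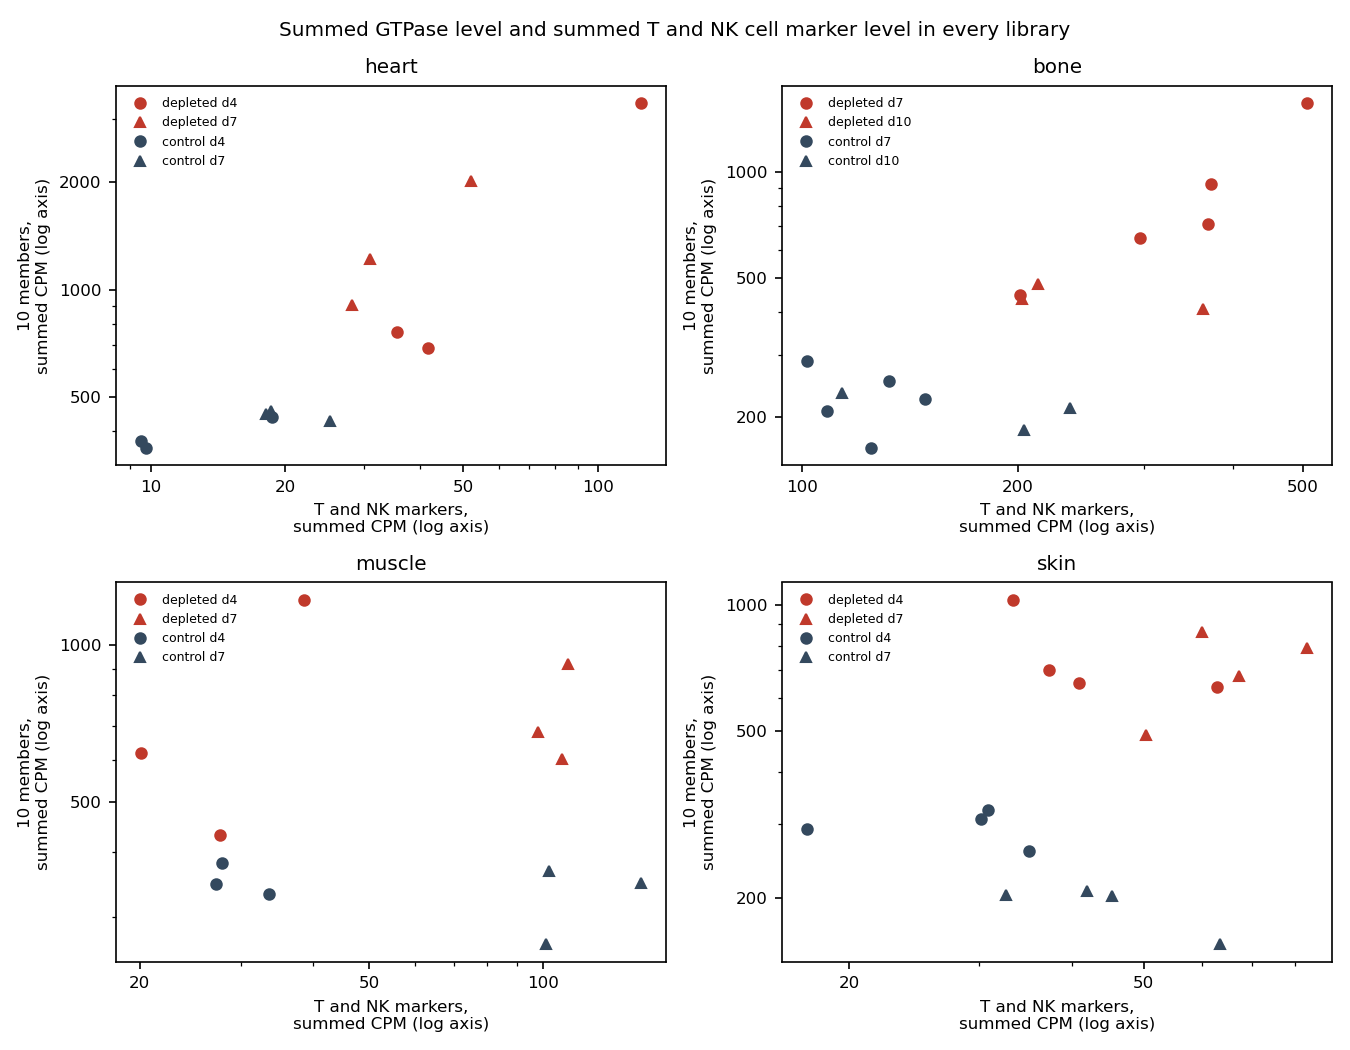
Summed CPM of the 10 GTPases against summed CPM of 21 T and NK cell markers in every library, 1 panel per tissue, both axes logarithmic, depleted libraries in red and control libraries in blue, with circles for the earlier and triangles for the later day. In heart and bone the libraries with the highest member sums, 3329.8 CPM in F3 and 1567 CPM in bone day 7 replicate 3, also have the highest marker sums, while in muscle the arms differ in members at like marker sums. In skin the highest member sum, 1029 CPM in day 4 depleted replicate 1, goes with a marker sum of 33.3 CPM, below the 35.0 CPM of day 4 control replicate 1. Among depleted bones of day 10, replicate 1 has the highest marker sum (363 CPM) and the lowest member sum (408 CPM).

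Other values moved with depletion too. Of 8 monocyte markers, 4 were called higher in heart on day 4, in bone on both days and in skin on both days. Muscle on day 7 had 2 higher, heart on day 7 had 1 and muscle on day 4 had 0. In bone on both days and in skin on day 7, 1 of the 8 was called lower. Of 12 genes that respond to tissue dissociation (Hspa1a, Atf3, Egr1 and others), 10 were called lower in bone on both days and in skin on day 7. Heart had 2 and 6 lower on days 4 and 7, muscle 2 and 4, and skin on day 4 had 0. Bone on day 7 had 8 of 11 macrophage markers lower and 6 of 14 neutrophil markers higher in depleted libraries, and on day 10 it had 4 and 8, with 1 macrophage marker higher. On day 7 in muscle, neutrophil markers summed to 1112 to 2942 CPM in depleted samples and 198 to 243 CPM in control samples. The rRNA-like gene Rn18s-rs5 took 73077 ± 24231 CPM in depleted and 36655 ± 29294 CPM in control bone on day 7 (SD, n = 5 each), and 89069 ± 19760 CPM in depleted against 20522 ± 4306 CPM in control bone on day 10 (n = 3 each). With its log2 level as a covariate, 7 of 10 members were still called in bone on day 7, while Gbp5, Irgm1 and Igtp were not. For bone on day 10, 0 of 10 members were called with it, where all-gene calls numbered 78 with the covariate and 2182 without it, and the change of Gbp5 was -0.72. Rn18s-rs5 was also higher in depleted than in control samples on day 7 in muscle (28427 ± 16266 CPM in depleted and 8407 ± 2174 CPM in control samples, n = 3 each) and in skin (30430 ± 20994 CPM in depleted and 12154 ± 5790 CPM in control samples, n = 4 each), differences that were not tested. With the covariate 4 members were called in muscle and 9 in skin on day 7. The part of monocyte markers, neutrophil markers and dissociation genes in the member changes was not tested.

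Across genes tested in all 4 tissues (9969), the non-members whose levels followed the mean of the 10 GTPases closely, centred within tissue and day, included Tap1, Fgl2, Gm12250, Gbp4, Serpina3g, Serpina3f and AW112010. Tap1, a peptide transporter of antigen presentation, had a Pearson r of 0.97 over the 44 libraries of bone, muscle and skin and of 0.96 over the 12 heart libraries. AW112010, the last of those named, had 0.94 and 0.96. It came ahead of the members Irgm1, Igtp and Gbp5, and Irgm2 was outside the first 40 genes. The points share their libraries and the difference between arms, and these r values are a description.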

How the data were processed

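RNA of sorted monocytes and macrophages was sequenced as 3′ libraries with unique molecular identifiers, per the labels' protocols. For heart the authors deposited whole-number counts per gene, and for bone, muscle and skin they deposited estimated counts, of which 19.4% of the nonzero values lay more than 0.01 from a whole number. The submitters' processing notes name STAR, Salmon, featureCounts, limma and the builds GRCm38 and GRCm39. The annotation, and how molecular identifiers were collapsed, are not stated in any source used here.

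Estimated counts were rounded before testing. Each tissue was fitted in R 4.3.3 with edgeR 4.0.16 (filterByExpr, TMM scaling, robust quasi-likelihood test), its 4 groups sharing one estimate of spread. Comparisons between bone, muscle and skin used one fit of their 12 groups. P-values were adjusted over all genes tested by the Benjamini-Hochberg method, with a threshold of 0.05. Levels are CPM on TMM-scaled library sizes. They depend on the other genes of a library, and 3′ counts of different genes are not compared. Values after ± are standard errors for log2 changes and SDs for levels. The alternatives were RLE scaling, no filter, DESeq2 1.42.0, limma-voom 3.58.1, a replicate block, the compared groups alone, a covariate for Rn18s-rs5, each library left out, and summed near copies. The fitting script was tested on simulated data.

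All 10 members passed the filter in each tissue and are named with values. From each other list the genes called in most comparisons are named. Some results are not reported here. Members and lists were chosen with earlier results of these data known. The series text gives days 4 and 7, while the labels of bone give days 7 and 10, which were used. The heart columns carry no replicate numbers, and those used as day 7 name no day.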

Additional observations from a re-analysis of the deposited data

Results flagged for a closer look

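Among 60 groups of 4 or 5 libraries, 1 per member, tissue, day and arm, 2 held a library far from the others, where chance gives about 1 in 20. Gbp5 was at 3.39 CPM in skin day 4 control replicate 3, against 6.34 to 6.51 CPM in the other 3 control wounds. Gbp7 was at 46.6 CPM in skin day 4 control replicate 1, against 61.4 to 63.2 CPM in the other 3. Both libraries lie on the far side from the depleted ones, and the calls of both genes in skin on day 4 held with each library left out. The effect of depletion on Iigp1 differed between bone and muscle on day 7, by 2.98 on the log2 scale, in the test of the difference itself (edgeR adjusted p = 0.0459). That call was lost in 12 of 16 fits that left out 1 library (edgeR adjusted p up to 0.111) and in limma-voom (adjusted p = 0.175).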

How the results depend on the processing

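Of 35 called member values, 31 held with each library left out in turn, and 4 were lost at least once: Gbp2, Gbp6 and Ifi47 in heart on day 4 and Gbp2 in bone on day 10. Of 1175 member values over all settings, 3 were negative: Gbp5 in heart on day 4 without F3 (range -0.16 to 2.08 over libraries left out), Gbp5 in bone on day 10 with the Rn18s-rs5 covariate (-0.72), and Irgm2 in muscle on day 7 without control replicate 1 (range -0.065 to 0.23). The cause was not tested.

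Counts of members called moved as follows. Heart on day 4 (3) gave 8 with DESeq2, 0 with the compared groups alone and 0 to 6 with libraries left out. Heart on day 7 (0) gave 1 with no filter, 4 with DESeq2, 3 with limma-voom and 6 with the groups alone. Between days, depleted heart (0) gave 0 to 5 with libraries left out, and control heart (0) gave 1 with no filter and 2 with DESeq2. Bone on day 10 (3) gave 5 with no filter, 5 with DESeq2, 5 with the replicate block, 7 with the groups alone and 0 with the covariate. Between days, depleted bone (3) gave 6 with no filter, 5 with the replicate block and 1 to 6 with libraries left out, and the difference of effects in bone (0) gave 1 with no filter. Muscle on day 4 (0) gave 6 with no filter, 4 with DESeq2 and 0 to 4 with libraries left out. Muscle on day 7 (2) gave 6 with no filter, 7 with DESeq2, 4 with limma-voom, 4 with the replicate block, 5 with the groups alone and 4 with the covariate. Between days, depleted muscle (2) gave 0 to 4 with libraries left out, and control skin (0) gave 3 with no filter. Between tissues with no filter, control bone and muscle (3) gave 6, control bone and skin (1) 4, control muscle and skin on day 7 (1) 5, and the differences of effects on day 7 gave 5 for bone and muscle (1), 2 for bone and skin (0) and 3 for muscle and skin (0). DESeq2 gave 2 for control bone and skin and 2 for the difference of effects between bone and muscle, where limma-voom gave 0. With libraries left out these 2 counts ran from 0 to 1 and from 0 to 3.

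Counts over all genes moved too. Heart on day 7 (356) gave 754 with no filter, 618 with DESeq2 and 599 with limma-voom, muscle on day 4 (20) gave 190 with no filter and 93 with DESeq2, and skin on day 4 (450) gave 719 with no filter. With the covariate, bone gave 1166 on day 7 (2994) and 78 on day 10 (2182), and muscle 419 on day 7 (1109). Same-numbered libraries deviated together weakly or not at all (r from -0.13 to 0.19 over 6 pairs of groups). Best matches were with the own number in 2 of 5 and 3 of 3 in bone on days 7 and 10. They were 0 of 3 and 2 of 3 in muscle on days 4 and 7, and 2 of 4 and 3 of 4 in skin. These values do not settle whether the numbers pair the libraries, and the replicate block is only an alternative. In heart no paired analysis was possible because its columns carry no replicate numbers. Low counts limit Gbp6 in heart and Gbp5, Gbp6 and Iigp1 in control bone.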
